A study of Mus musculus with 24 samples.

Results

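The genes described here are those that make cholesterol and fatty acids in the mouse. They form 3 groups: 17 enzymes of the sterol branch, 5 regulators of sterol balance, and 8 enzymes of the fatty acid branch. They were taken from a list of 31 gene symbols, and a gene was kept if the array had a probe set annotated to its symbol alone. This held for 30 of the 31, out of 19938 genes measured in the same way, and Acat2 is not analysed here. Where a gene had several such probe sets the brightest was used, which concerned 3 members (Idi1, Fdft1 and Acaca, with 2 probe sets each). The mean signals of the members lay between the 63.2 and the 99.5 percentile of all genes, a statement about the brightness of the probes and not about the amounts of the mRNAs. Levels of different members are therefore not set against each other.

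Cells make cholesterol from acetyl-CoA through mevalonate, farnesyl diphosphate, squalene and lanosterol, and they make palmitate from the same precursor through malonyl-CoA. Both routes are switched on by the sterol regulatory element binding proteins (SREBPs), which are held in the endoplasmic reticulum by INSIG proteins when sterols are plentiful and are escorted by SCAP to the Golgi and cut free when sterols are scarce. SREBP2, from Srebf2, acts mainly on the sterol genes, and the main SREBP1 isoform of most tissues, from Srebf1, acts mainly on the fatty acid genes.

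The samples were embryoid bodies (EBs), balls of differentiating embryonic stem cells, grown from the mouse line 46C. This is a line with a fluorescent reporter in the Sox1 locus, a gene of the early neural plate. Treated EBs received FK506 (100 ng/ml) together with cyclosporin A (1 ug/ml), which inhibit the phosphatase calcineurin, from day 3 to day 8, and untreated EBs received neither. For the untreated EBs the labels name no vehicle, and each drug alone was not analysed here. RNA of both kinds was taken on days 4, 6, 8 and 12 in each of 3 independent experiments, so that the 8 groups hold 3 arrays each. EBs were plated on day 7, and on day 8 a serum-free medium with ITS supplement replaced the stem cell medium. Between day 8 and day 12 the passing of time, the new medium and, for treated EBs, the end of the drugs cannot be told apart. Serum carries lipoprotein cholesterol and fatty acids, which is background and was not measured. Values are log2 signals, written as mean ± SD over the 3 arrays of a group where not given array by array, always in the order of experiments 1, 2 and 3. Differences are also log2 values and come with an SE. A gene is called where limma's moderated test, fitted over all 24 arrays and adjusted over all 19938 genes, gave an adjusted p under 0.05.

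Array medians were 7.80 to 7.88. Precision is limited by the number of arrays, and the median SE of a difference between 2 groups was 0.09. The pluripotency gene Pou5f1 had a signal of 12.71 ± 0.03 in treated and 12.75 ± 0.07 in untreated EBs at day 4 (SD, n = 3 each). At day 12 it had 9.20 ± 0.16 in treated and 8.04 ± 0.34 in untreated EBs (SD, n = 3 each). Within some groups a single array stood apart over most members. In treated EBs at day 12, array 1 held the lowest value of 26 of the 30 members and array 2 the highest value of 27. Array 1 of treated day 6 held the highest value of 26 members and array 3 of untreated day 8 that of 27. Array 2 of untreated day 12 held the lowest value of 24. Where leaving out 1 of these arrays ended or added calls of members, the count or the genes concerned are given beside the result.

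The promoters of members that responded to the drugs are shown first, because the regulators of the pathway act there. RefSeq promoters (build GRCm38.p6), which span 250 bases before to 50 after an annotated start, were listed for 23 of the 30 members and for 15614 measured genes. For 4 of these 23 members the table has several starts, and such a gene was counted if any of its promoters held the motif. Both strands were searched for 4 motifs, and no match overlapped another motif. The sterol regulatory element, the site of SREBPs, was searched as ATCAC directly followed by CCCAC. The others were the E-box CACGTG, which SREBPs and other helix-loop-helix factors can bind, the NF-Y site CCAAT and the Sp1 site GGGCGG, factors that act beside SREBPs. No member held the sterol regulatory element exactly, and 0.064% of all genes did. With any 1 of its 10 positions free it was found in 3 of 23 members (13.0%) and in 2.2% of genes. These 3 were Hmgcs1, the enzyme that makes HMG-CoA, Nsdhl, which removes methyl groups from sterols, and Srebf2. The E-box was in 5 members (21.7%, against 9.5% of genes). The CCAAT box was in 19 (82.6%, against 41.7%) and the GC box in 19 (82.6%, against 52.9%). A match describes the letters in this window and is not evidence of binding. Shown are the 250 bases before the start of the 3 genes with a sterol regulatory element match, all called in a drug comparison, and of the other 2 members called at day 6. These are Cyp51, the lanosterol demethylase, and Sc5d, a late sterol desaturase. Capitals mark the sterol regulatory element match, E-boxes and CCAAT boxes (ATTGG on the other strand), and GC boxes are left in lower case. The stretches are chr13:119690101-119690350 (Hmgcs1), chrX:72918271-72918520 (Nsdhl) and chr15:82147019-82147268 (Srebf2) on the plus strand, and chr5:4104698-4104947 (Cyp51) and chr9:42264301-42264550 (Sc5d) on the minus strand.
Hmgcs1: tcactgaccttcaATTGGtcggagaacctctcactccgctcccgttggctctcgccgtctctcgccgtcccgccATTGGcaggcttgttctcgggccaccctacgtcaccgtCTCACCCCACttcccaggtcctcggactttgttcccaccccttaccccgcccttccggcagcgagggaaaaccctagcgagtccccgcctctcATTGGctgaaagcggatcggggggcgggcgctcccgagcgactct
Nsdhl: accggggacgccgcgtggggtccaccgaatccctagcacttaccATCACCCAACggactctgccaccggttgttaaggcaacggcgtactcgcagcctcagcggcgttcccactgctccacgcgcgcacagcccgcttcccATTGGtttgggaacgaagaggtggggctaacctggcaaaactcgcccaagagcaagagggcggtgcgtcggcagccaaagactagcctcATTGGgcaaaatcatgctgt
Srebf2: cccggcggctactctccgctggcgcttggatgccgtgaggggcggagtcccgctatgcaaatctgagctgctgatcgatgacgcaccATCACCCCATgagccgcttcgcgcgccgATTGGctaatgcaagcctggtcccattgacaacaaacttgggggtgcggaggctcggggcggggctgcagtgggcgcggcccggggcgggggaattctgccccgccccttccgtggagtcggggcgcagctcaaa
Cyp51: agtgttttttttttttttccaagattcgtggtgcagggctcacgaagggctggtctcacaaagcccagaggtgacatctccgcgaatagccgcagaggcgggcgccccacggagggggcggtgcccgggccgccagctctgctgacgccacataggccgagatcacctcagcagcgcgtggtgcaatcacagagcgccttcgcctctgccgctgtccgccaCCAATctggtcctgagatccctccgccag
Sc5d: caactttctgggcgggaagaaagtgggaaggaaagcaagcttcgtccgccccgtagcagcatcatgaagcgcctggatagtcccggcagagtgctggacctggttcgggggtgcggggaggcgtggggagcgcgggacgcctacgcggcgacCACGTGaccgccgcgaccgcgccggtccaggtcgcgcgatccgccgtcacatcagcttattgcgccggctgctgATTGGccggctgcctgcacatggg

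In these 5 stretches the sterol regulatory element match began at position -138 from the start in Hmgcs1, at -206 in Nsdhl and at -163 in Srebf2. Hmgcs1 had CCAAT boxes on both sides of its match, Nsdhl and Srebf2 had them on the side of the start, and Cyp51 and Sc5d had a CCAAT box near the start.

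**Figure D1:**
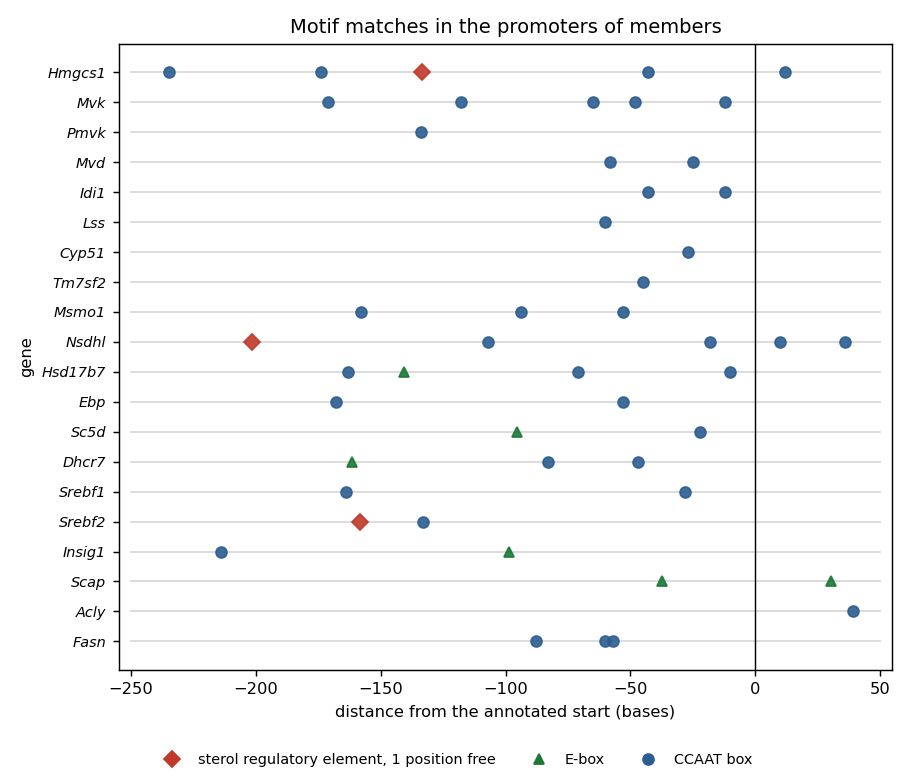
Positions of sterol regulatory element matches (1 position free), E-boxes and CCAAT boxes in the RefSeq promoters of the members that hold any of them, as distance in bases from the annotated start (x axis), 1 row per gene. GC boxes are not drawn, a gene with several starts has the matches of each start on its row, and the 3 sterol regulatory element matches lie in Hmgcs1, Nsdhl and Srebf2.

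Over the 8 groups most members had their highest mean in untreated EBs at day 12, as the heat map of group means shows. Group means of Fads1, the desaturase that makes arachidonic acid, spanned 1.35 on the log2 scale, those of the sterol enzyme Hsd17b7 spanned 1.05 and those of Scd1, a stearoyl-CoA desaturase, spanned 1.03. Elovl6, which elongates palmitate, spanned 0.14 and Scap 0.28. Ebp, the sterol isomerase, ran the other way, with its lowest group means at day 12, 9.06 ± 0.18 in treated and 9.13 ± 0.10 in untreated EBs (SD, n = 3 each).

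**Figure D2:**
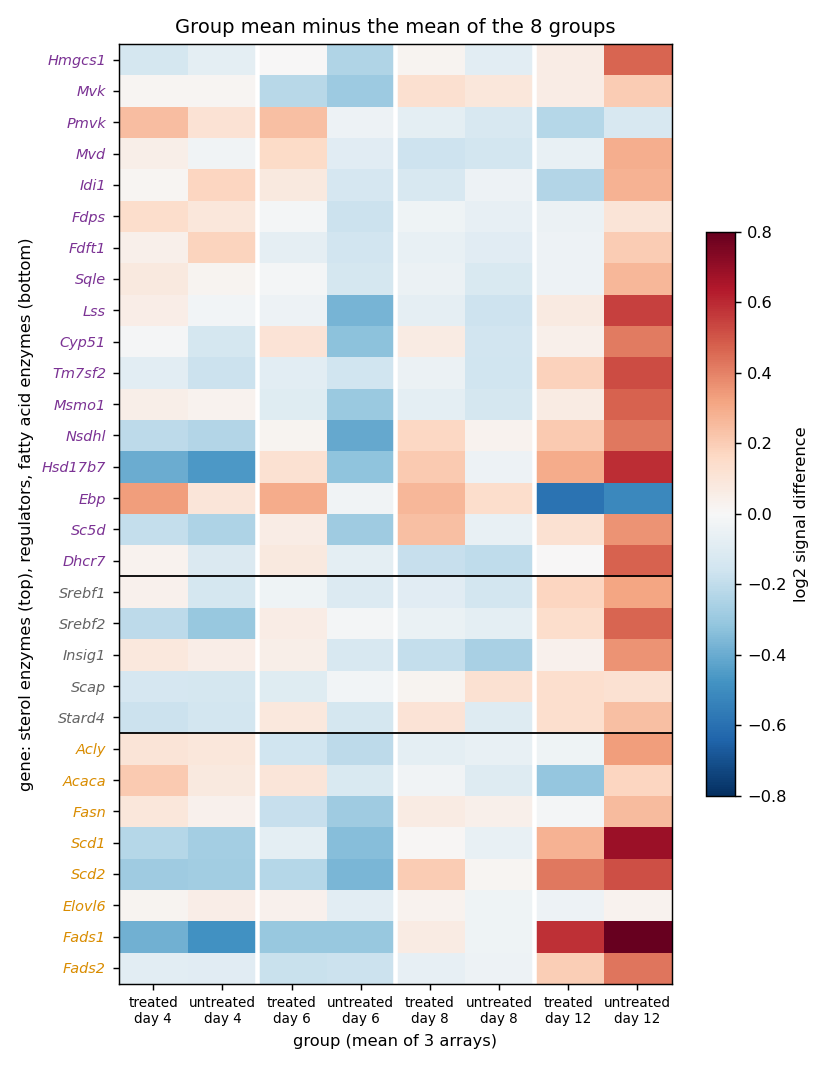
Mean log2 signal of each of the 30 members (rows) in the 8 groups (columns, mean of 3 arrays), as the difference from that gene's mean over the 8 groups (colour, log2 scale). The untreated day 12 column is the highest for most genes, and Ebp is lowest at day 12 in both conditions.

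At day 4, with the drugs in the medium since day 3, treated EBs were compared with untreated ones. None of the 30 members was called by limma, and over all genes 0.00502% were called higher, a single gene, and 0.0% lower. At an unadjusted p under 0.05 (limma) there was 1 member, beside 1128 of 19938 genes. The member median was 0.05, beside 0.03 over all genes. The members with the smallest p were Srebf1, Ebp, Fdft1 and Idi1. Srebf1 had 10.03, 9.86 and 9.90 in treated and 9.71, 9.70 and 9.86 in untreated EBs. Ebp had 10.33, 9.81 and 9.81 in treated and 9.73, 9.77 and 9.74 in untreated EBs. For both genes the treated arrays lay above the untreated ones, narrowly for Srebf1, and array 1 was the highest treated array for both. Fdft1, squalene synthase, had 12.34, 12.57 and 12.57 in treated and 12.58, 12.63 and 12.68 in untreated EBs. Idi1, which isomerises isopentenyl diphosphate, had 11.29, 11.52 and 11.54 in treated and 11.58, 11.66 and 11.59 in untreated EBs. Here the treated arrays lay below the untreated ones. All 4 had adjusted p-values of 0.862 or 0.864 (limma).

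At day 6, Cyp51, Nsdhl and Sc5d, enzymes that act after lanosterol is made, were called higher in treated than in untreated EBs. No member was called lower. The 3 of 30 called higher compare with 1.26% of all genes called higher and 0.577% called lower. Among the 11963 brighter genes, those above the 40th percentile, 2.29% were called higher. At an unadjusted p under 0.05 (limma), 15 members were higher and 0 lower, beside 2446 of 19938 genes in either direction. In bulk RNA, a changed number of cells that express a gene and a changed amount of RNA per cell cannot be told apart, here and below. Cyp51 had 10.74, 10.85 and 10.71 in treated and 10.31, 10.37 and 10.31 in untreated EBs. The groups lay well apart, with a difference of 0.44 (SE 0.09, adjusted p = 0.00811, limma), or 1.35-fold. Nsdhl, a dehydrogenase of sterol demethylation, had 11.39, 11.33 and 11.20 in treated and 10.93, 10.76 and 10.93 in untreated EBs. The difference was 0.43 (SE 0.08, adjusted p = 0.00454). Sc5d had 10.80, 10.75 and 10.69 in treated and 10.42, 10.42 and 10.35 in untreated EBs. The difference was 0.35 (SE 0.08, adjusted p = 0.0266). For both genes every treated array exceeded every untreated one. Hsd17b7, the partner of Nsdhl in removing methyl groups, had 10.26, 9.88 and 10.01 in treated and 9.74, 9.46 and 9.61 in untreated EBs. Its arrays did not overlap either, but its difference of 0.45 (SE 0.12) had adjusted p = 0.0637, and 0.0496 with the replicate number as a block within the day. Cyp51 was called in all 15 alternative fits, which do not include the 1.5-fold minimum that it did not reach. Nsdhl was not called without untreated array 2 (adjusted p = 0.059), and Sc5d was not called when any 1 of the 6 arrays was left out (adjusted p = 0.136 without treated array 1).

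Treated arrays of day 6 lay wholly above untreated ones for 15 of the 30 members and wholly below for 0, beside 12.1% and 9.44% of all genes. Of these 15, 11 were sterol enzymes, 1 was a regulator and 3 were fatty acid enzymes. The median difference was 0.24 over the sterol enzymes, 0.08 over the regulators and 0.11 over the fatty acid enzymes, beside 0.00 over all genes. Lateral mesoderm markers moved on the same arrays. Of 9 measured, 7 were called higher and 0 lower in treated EBs, beside 1.26% and 0.577% of all genes. Their median difference was 1.82. Their log2 summed signal ran between 13.29 and 14.19 in treated and between 11.77 and 12.51 in untreated EBs, and its part in the sterol gene differences was not tested.

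At day 8, when treatment ended, Sc5d alone was called, with 11.09, 10.75 and 10.94 in treated and 10.65, 10.50 and 10.74 in untreated EBs. Its difference was 0.30 (SE 0.08, adjusted p = 0.0259, limma), and treated arrays lay above untreated ones by a small distance. This call ended without untreated array 2, without treated array 1 or 3 (adjusted p between 0.0946 and 0.228), and when the 2 groups were fitted alone (adjusted p = 0.197). That is 1 of 30 members, beside 4.86% of all genes called higher and 4.08% called lower. Stard4, a carrier of cholesterol between membranes, had 10.36, 10.14 and 10.24 in treated and 10.10, 9.93 and 10.08 in untreated EBs (adjusted p = 0.0988). Its groups did not overlap. Cyp51 had 10.82, 10.66 and 10.70 in treated and 10.43, 10.37 and 10.71 in untreated EBs, with overlap through untreated array 3 (0.22, adjusted p = 0.116). Without that array, the highest of its group for most members, Cyp51 was called with a difference of 0.32 (adjusted p = 0.0318). Scd2, the stearoyl-CoA desaturase of brain and embryo, had 13.29, 13.07 and 13.29 in treated and 13.04, 12.90 and 13.13 in untreated EBs, also with overlap (adjusted p = 0.135). Scd2 was called as well with the replicate number as a block within the day (adjusted p = 0.0475) and without treated array 2 (adjusted p = 0.028). The member median was 0.06, beside -0.04 over all genes. At an unadjusted p under 0.05 (limma), 4 members were higher and 0 lower, beside 4834 of 19938 genes in either direction. By the same measure 10 of 10 mesenchyme markers were higher, and 6 of 9 lateral mesoderm markers were higher and 0 lower. Neural progenitor markers were lower in 8 of 10 with 0 higher, and pluripotency markers lower in 6 of 10 with 1 higher. The part of these markers was not tested.

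At day 12, after the drugs had ended at day 8, sterol and fatty acid genes were lower in EBs that had been treated. Of the 30 members, 18 were called lower in treated than in untreated EBs and 0 higher. Over all genes 10.4% were called lower and 7.49% higher (16.5% lower among the brighter genes). The 18 were 10 of 17 sterol enzymes, 2 of 5 regulators and 6 of 8 fatty acid enzymes. The differences were modest, between -0.23 and -0.51, and none of the 18 reached 1.5-fold. Treated arrays lay wholly below untreated ones for 21 members, the 18 called lower and Sc5d, Srebf1 and Scd2, beside 17.1% of all genes. They lay wholly above for 0, beside 15.4%. Only Scap, the SREBP escort, had a difference above 0 (0.02, adjusted p = 0.908).

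At the head of the sterol branch, Hmgcs1 had 12.18, 12.46 and 12.37 in treated and 12.82, 12.60 and 12.81 in untreated EBs at day 12. The groups lay -0.41 apart (SE 0.07, adjusted p = 0.000519, limma), or 1.33-fold lower in treated EBs. Mvd, which decarboxylates diphosphomevalonate, had 9.99, 10.13 and 10.06 in treated and 10.43, 10.37 and 10.42 in untreated EBs, a difference of -0.35 (adjusted p = 0.027). The kinases between these steps were not called, Mvk with -0.15 and Pmvk with -0.10. Idi1 had 10.93, 11.47 and 11.20 in treated and 11.73, 11.65 and 11.76 in untreated EBs. Its difference of -0.51 (SE 0.10, adjusted p = 0.000703), or 1.43-fold lower, was the largest of the members, with treated array 1 far below the others. Farnesyl diphosphate synthase, Fdps, had -0.15 (adjusted p = 0.176). Fdft1, the first enzyme committed to sterols, had 12.41, 12.51 and 12.33 in treated and 12.75, 12.61 and 12.62 in untreated EBs, a difference of -0.24 (adjusted p = 0.0215).

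From squalene on, Sqle, the epoxidase, had 11.41, 11.66 and 11.51 in treated and 11.86, 11.75 and 11.89 in untreated EBs at day 12. Its difference was -0.31 (adjusted p = 0.00352, limma), with treated array 2 closest to the untreated arrays. Lss, which closes the lanosterol rings, had 10.92, 11.26 and 11.25 in treated and 11.65, 11.54 and 11.66 in untreated EBs. The difference was -0.47 (SE 0.10, adjusted p = 0.00141). Cyp51 had 10.59, 10.84 and 10.67 in treated and 11.03, 11.02 and 11.18 in untreated EBs. The difference was -0.38 (SE 0.09, adjusted p = 0.00384). It was thus lower at day 12 and higher at day 6 in treated EBs, and both calls held in the 15 alternative fits, though neither reached the 1.5-fold minimum. Tm7sf2, a sterol reductase of the endoplasmic reticulum, had 9.44, 9.82 and 9.75 in treated and 10.28, 9.82 and 9.93 in untreated EBs. Treated array 2 all but met untreated array 2, and the difference of -0.34 (SE 0.11) had adjusted p = 0.0391, and 0.0742 with the replicate number as a block within the day. Msmo1, the methylsterol oxidase, had 11.79, 12.18 and 11.92 in treated and 12.40, 12.25 and 12.48 in untreated EBs, a difference of -0.41 (adjusted p = 0.00147). Dhcr7, which makes cholesterol from its last precursor, had 10.26, 10.55 and 10.49 in treated and 10.93, 10.88 and 10.89 in untreated EBs. The difference was -0.46 (SE 0.09, adjusted p = 0.000785). The untreated arrays of Dhcr7 were tight and the treated ones spread, a pattern shared by most members. Nsdhl (-0.21, adjusted p = 0.0672), Hsd17b7 (-0.29, 0.108), Sc5d (-0.23, 0.0516) and Ebp (-0.07, 0.738) were not called. With the replicate number as a block within the day Sc5d was called lower (adjusted p = 0.0377).

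Among the regulators, Srebf2 had 11.36, 11.48 and 11.45 in treated and 11.71, 11.78 and 11.76 in untreated EBs at day 12. Both groups were tight and lay apart by -0.32 (SE 0.08, adjusted p = 0.00565, limma), or 1.25-fold lower in treated EBs. Insig1, the sterol sensor that holds SCAP back and is itself an SREBP target, had 11.58, 11.85 and 11.77 in treated and 12.08, 12.01 and 12.09 in untreated EBs, a difference of -0.33 (adjusted p = 0.0114). Srebf1 had 10.07 ± 0.09 in treated and 10.21 ± 0.04 in untreated EBs (SD, n = 3 each), a difference of -0.14 (adjusted p = 0.175). Stard4 had -0.11 (adjusted p = 0.397).

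In the fatty acid branch, Acly, which makes cytosolic acetyl-CoA from citrate, had 11.35, 11.66 and 11.49 in treated and 11.89, 11.82 and 11.90 in untreated EBs at day 12. Its difference was -0.37 (SE 0.07, adjusted p = 0.00109, limma). Acaca, the acetyl-CoA carboxylase that makes malonyl-CoA, had 10.01, 10.33 and 10.07 in treated and 10.64, 10.63 and 10.58 in untreated EBs. The difference was -0.48 (SE 0.09, adjusted p = 0.00048), or 1.40-fold lower. Its treated arrays lay far below the untreated ones, which differed little. Fasn, fatty acid synthase, had 11.75, 12.03 and 11.89 in treated and 12.20, 12.17 and 12.09 in untreated EBs, a difference of -0.27 (adjusted p = 0.0233). Scd1 had 12.23, 12.60 and 12.51 in treated and 12.84, 12.82 and 12.91 in untreated EBs, a difference of -0.41 (adjusted p = 0.00289). For both enzymes treated array 1 was the lowest. Fads1 had 12.33, 12.45 and 12.44 in treated and 12.69, 12.67 and 12.70 in untreated EBs, a difference of -0.28 (adjusted p = 0.0174). Fads2, the first desaturase of polyunsaturated fatty acids, had 12.20, 12.48 and 12.37 in treated and 12.61, 12.53 and 12.61 in untreated EBs, a difference of -0.23 (adjusted p = 0.0155). The desaturase Scd2 (-0.09, adjusted p = 0.49) and Elovl6 (-0.07, adjusted p = 0.531) were not called.

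**Figure D3:**
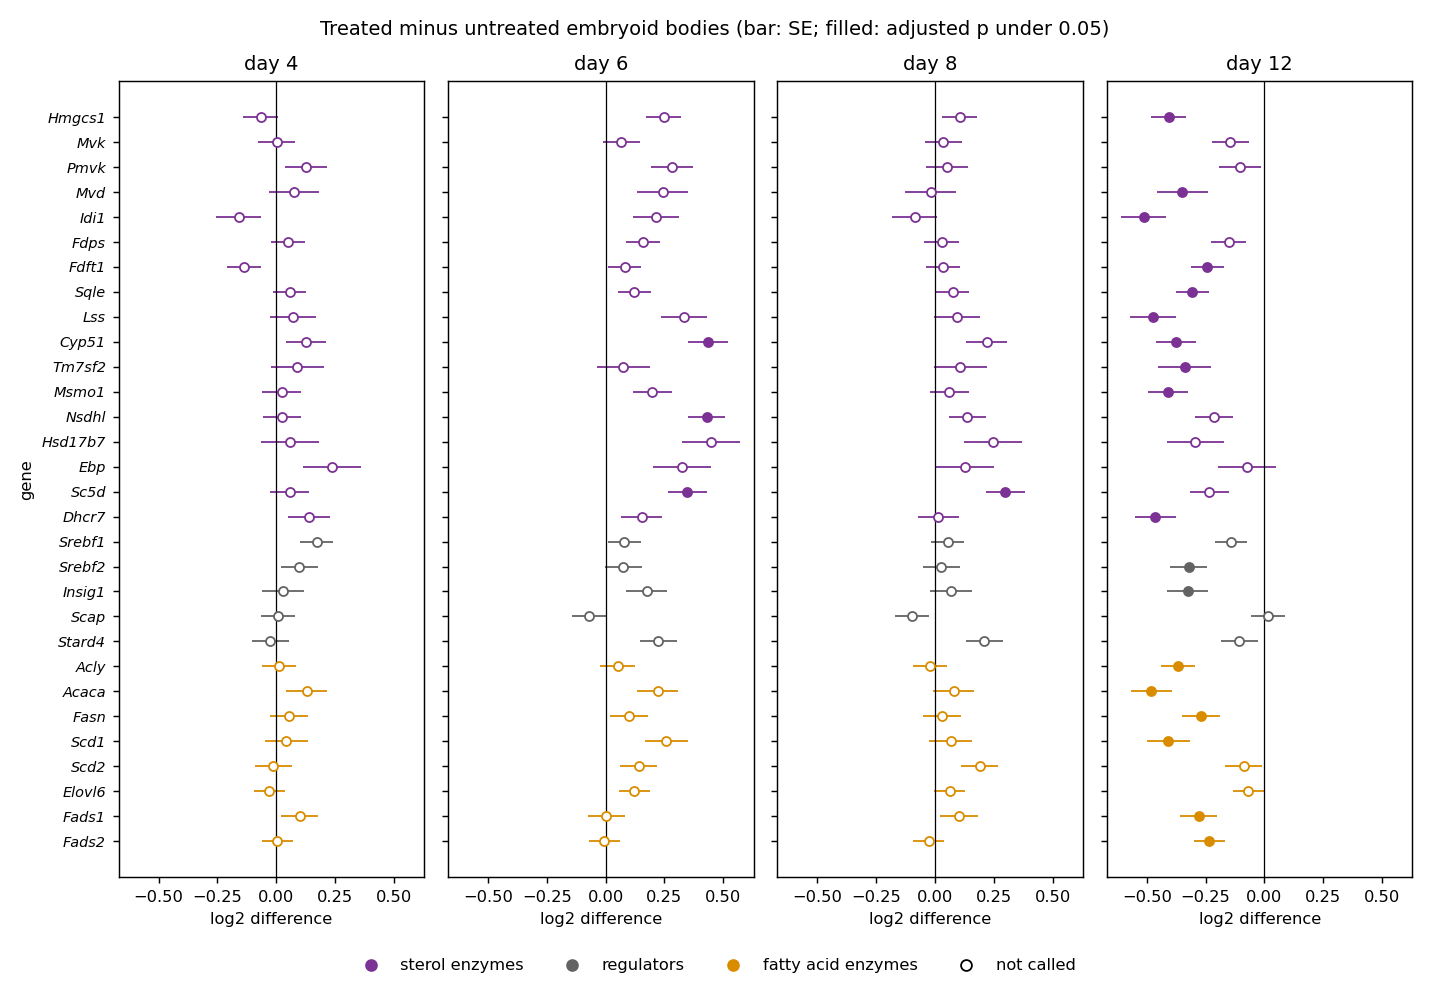
Difference in log2 signal between treated and untreated EBs for each member at days 4, 6, 8 and 12 (x axis, 1 panel per day, bars are the SE, filled points have an adjusted p under 0.05). At day 6 Cyp51, Nsdhl and Sc5d are filled and lie right of 0, and at day 12 the 18 filled points lie left of 0, between -0.23 and -0.51.

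At day 12 the median difference was -0.31 over the sterol enzymes, -0.14 over the regulators and -0.27 over the fatty acid enzymes, beside 0.02 over all genes, and the difference between branches was not tested. Of the 18 calls, 10 held in all 15 alternative fits, the 1.5-fold minimum apart: Hmgcs1, Idi1, Lss, Cyp51, Msmo1, Dhcr7, Srebf2, Acly, Acaca and Scd1. The count was 11 without treated array 1, which ended the calls of Mvd, Fdft1, Tm7sf2, Insig1, Fasn, Fads1 and Fads2, and 21 without treated array 2, which added Nsdhl, Hsd17b7 and Sc5d. Without untreated array 2 Fasn (adjusted p = 0.0724) and Mvd (0.0557) were not called and Sc5d was (0.0377). None of the 18 changed sign in any alternative fit. Leaving out 1 array could not change a sign, since their treated arrays lay wholly below the untreated ones.

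Cell type markers differed between the same groups. Their lists were chosen with earlier results of these data known. Of all genes 10.4% were called lower and 7.49% higher at day 12. Of 10 neural progenitor markers, 8 were lower and 0 higher in treated EBs at day 12, with a median difference of -0.90. Their log2 summed signal ran between 13.35 and 14.16 in treated and between 14.58 and 14.73 in untreated EBs. Pluripotency markers were higher (6 of 10, 0 lower, median 0.73), with sums between 12.81 and 13.12 in treated and between 11.96 and 12.25 in untreated EBs. Visceral endoderm markers were higher in 7 of 10 and lower in 1 (median 1.01), lateral mesoderm markers in 4 of 9 with 0 lower (0.82) and mesenchyme markers in 5 of 10 with 0 lower (1.07). None of the 9 adipocyte or 8 erythroid markers was called at day 12 by limma, and none had an unadjusted p under 0.05. Adipoq, an adipocyte hormone gene, had 5.80 ± 0.05 in treated and 5.72 ± 0.04 in untreated EBs (SD, n = 3 each). The part of the cell type makeup in the lower signals of the lipid genes in treated EBs was not tested.

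**Figure D4:**
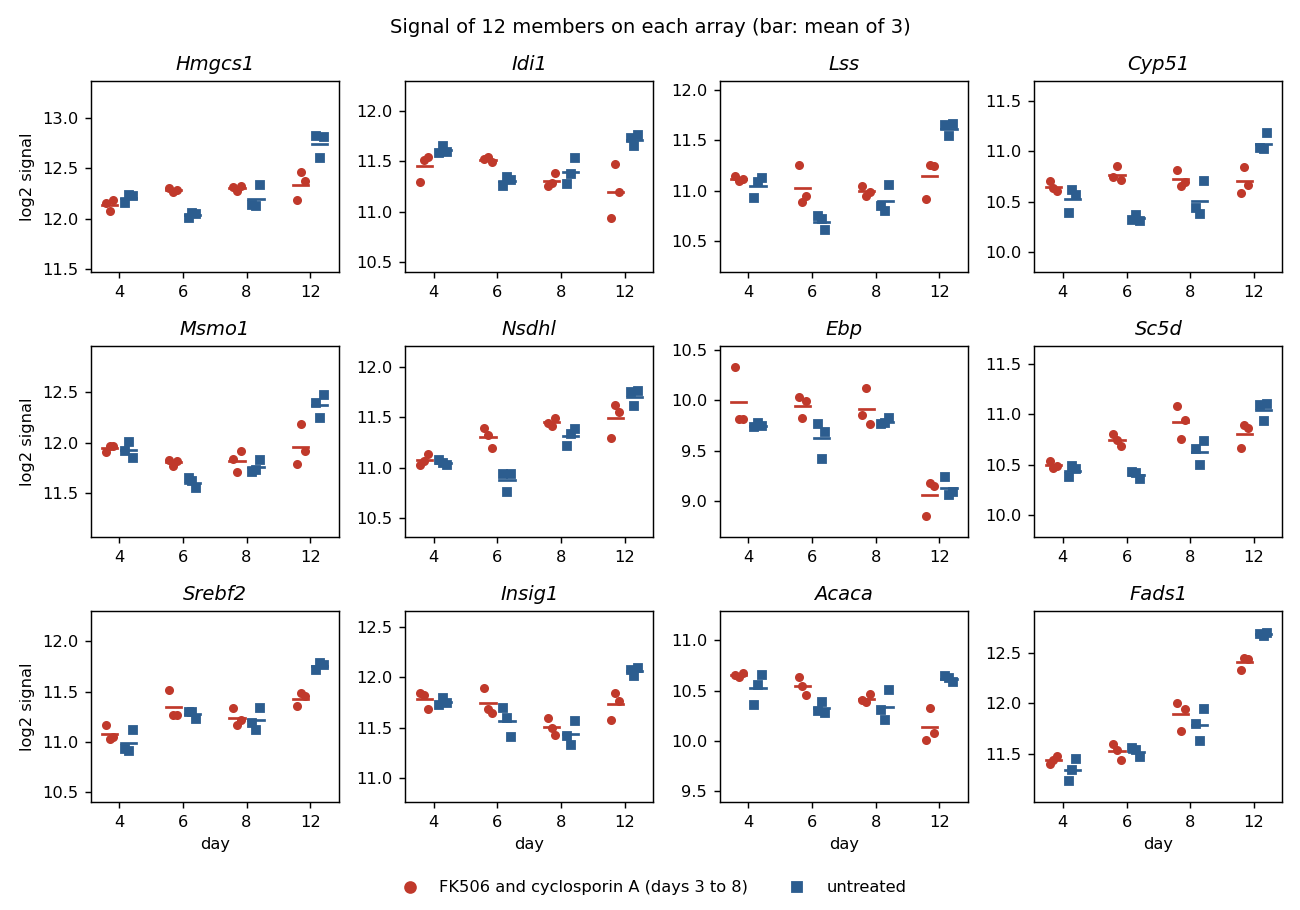
Log2 signal of 12 members on each of the 24 arrays by day (x axis, bars the mean of 3 arrays). Circles are EBs treated with FK506 and cyclosporin A from day 3 to day 8, and squares are untreated EBs. Each panel has its own y range, and all ranges have the same span. At day 12 the treated arrays lie below the untreated ones for Hmgcs1, Idi1, Lss, Cyp51, Msmo1, Sc5d, Srebf2, Insig1, Acaca and Fads1, and overlap them for Nsdhl and Ebp.

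The course of untreated EBs shows where these differences fall. Between day 4 and day 6, 8 members fell, 1 rose and 21 were not called. The share that fell was near that of all genes, of which 20.9% were called lower and 21.1% higher. Lss, the largest faller, had 10.75, 10.72 and 10.62 at day 6, against 10.93, 11.09 and 11.13 at day 4. No array of day 6 reached the level of day 4, and the difference was -0.35 (SE 0.10, adjusted p = 0.00598, limma). The others were Mvk (-0.31), Idi1 (-0.31), Fdps (-0.26), Fdft1 (-0.33), Msmo1 (-0.32), Acly (-0.30) and Fasn (-0.32). Srebf2 alone rose, with 11.29, 11.30 and 11.23 at day 6, against 10.93, 10.91 and 11.11 at day 4, a difference of 0.29 (SE 0.08, adjusted p = 0.00571). Counts of fallers depended on scaling, with 13 after quantile normalization and 16 after median centring of the arrays. On the same arrays 4 of 10 pluripotency markers (median -0.36) and 5 of 9 adipocyte markers (-0.28) were lower and 0 higher, and 5 of 9 lateral mesoderm markers (0.86) were higher and 0 lower. Of 10 neural progenitor markers 4 were lower and 2 higher (-0.26). The log2 summed signal of the lateral mesoderm markers ran between 11.77 and 12.51 at day 6, against 11.42 and 11.56 at day 4. The part of these markers in the differences of the lipid genes was not tested.

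Between day 6 and day 8 of untreated culture 7 members rose and 0 fell, beside 17.8% of genes called higher and 18.3% called lower. Nsdhl rose most, with 11.22, 11.34 and 11.39 at day 8, against 10.93, 10.76 and 10.93 at day 6, a difference of 0.44 (SE 0.08, adjusted p = 0.000307, limma). Its days did not overlap. The others were Mvk (0.38), Sc5d (0.23), Fasn (0.32), Scd1 (0.28), Scd2 (0.38) and Fads1 (0.27), so that 4 of the 8 fatty acid enzymes were among them. The lowest difference was that of Insig1, -0.13, which was not called. Without day 8 array 3 the count was 4, with Sc5d (adjusted p = 0.133), Scd1 (0.121) and Fads1 (0.0781) no longer called, and it was also 4 without day 6 array 3. Lateral mesoderm markers (8 of 9, median 1.74), visceral endoderm markers (8 of 10, 0.61), mesenchyme markers (7 of 10, 1.04) and erythroid markers (7 of 8, 1.15) were higher on the same arrays, with 0 lower in each list. Their part was not tested.

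Between day 8 and day 12 most members rose in untreated EBs. Of 30 members, 24 rose and 1 fell, beside 18.8% and 19.9% of all genes (25.7% and 26.4% among the brighter genes). The risers were 13 of 17 sterol enzymes, 4 of 5 regulators and 7 of 8 fatty acid enzymes, with medians of 0.41, 0.46 and 0.43 beside -0.06 over all genes. Fads1 rose most, with 12.69, 12.67 and 12.70 at day 12, against 11.80, 11.63 and 11.95 at day 8. Its difference of 0.90 (SE 0.08, adjusted p = 1.17e-08, limma), or 1.86-fold, far exceeded the spread within either day. It was followed by Scd1 (0.74), Lss (0.71), Tm7sf2 (0.68) and Dhcr7 (0.67). Among the regulators Insig1 rose by 0.62, Srebf2 by 0.54, Srebf1 by 0.46 and Stard4 by 0.34. Mvk, Pmvk, Fdps, Scap and Elovl6 were not called. Ebp was the single faller, with 9.24, 9.06 and 9.09 at day 12, against 9.76, 9.77 and 9.82 at day 8, a difference of -0.66 (SE 0.12, adjusted p = 0.000196). Of the 25 calls 22 held in all 14 alternative fits (the 1.5-fold minimum apart), the exceptions being Idi1, Acaca and Fasn. Over the same days 7 of 10 neural progenitor markers (median 1.23) and 9 of 10 mesenchyme markers (median 2.0) were higher and 10 of 10 pluripotency markers lower. Their part in the rise of the lipid genes was not tested.

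In treated EBs the early course was mixed. Between day 4 and day 6, 5 members rose and 3 fell, beside 19.1% and 25.1% of all genes, with 2 and 4 after quantile normalization and 4 and 4 after median centring. Hsd17b7 rose most, with 10.26, 9.88 and 10.01 at day 6, against 9.54, 9.46 and 9.57 at day 4 (0.52, SE 0.12, adjusted p = 0.00185, limma), and Nsdhl, Sc5d, Srebf2 and Stard4 rose with it. Fasn fell most, with 11.76, 11.79 and 11.60 at day 6, against 12.07, 11.96 and 11.95 at day 4 (-0.27, SE 0.08, adjusted p = 0.0096), and Mvk and Acly fell as well. Neither gene overlapped between its days. Without day 6 array 1 there were 2 risers and 3 fallers, with Nsdhl (adjusted p = 0.104), Sc5d (0.0673) and Srebf2 (0.0814) no longer called, and without day 4 array 2 there were also 2 and 3. Between day 6 and day 8, 4 members rose and 4 fell, beside 16.8% and 24.7% of all genes, with 7 and 0 after quantile normalization and 7 and 2 after median centring. Scd2 rose most, with 13.29, 13.07 and 13.29 at day 8, against 12.90, 12.64 and 12.81 at day 6 (0.43, SE 0.08, adjusted p = 0.000156), with Mvk, Fasn and Fads1. Pmvk, the phosphomevalonate kinase, fell most, with 9.04, 9.07 and 8.97 at day 8, against 9.59, 9.20 and 9.24 at day 6 (-0.32, SE 0.09, adjusted p = 0.00609), with Mvd, Dhcr7 and Insig1. Array 1 of day 6 stood high for Pmvk, and without it Pmvk had -0.20 (adjusted p = 0.0651) and none of the 4 fallers was called, while 4 members still rose. Without day 8 array 3 there were 4 risers and 1 faller. Over day 4 to 6 all 9 lateral mesoderm markers were higher (median 2.89), and over day 6 to 8 all 10 mesenchyme markers were (2.20), and their part was not tested.

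Between day 8 and day 12, after the drugs ended, 0 of 17 sterol enzymes, 1 of 5 regulators and 4 of 8 fatty acid enzymes rose in treated EBs. These 5 of 30 are near the 16.5% of all genes called higher, and 2 members fell beside 16.7%. The medians were 0.02, 0.19 and 0.13, beside 0.01 over all genes. The risers were Fads1, Fads2, Scd1, Scd2 and Srebf1. Fads1 had 12.41 ± 0.07 at day 12, against 11.89 ± 0.14 at day 8 (SD, n = 3 each), a difference of 0.52 (SE 0.08, adjusted p = 2.9e-05, limma). Scd1 rose by 0.27, Srebf1 by 0.26, Fads2 by 0.26 and Scd2 by 0.22. These 4 of the fatty acid branch are all desaturases. Ebp fell, with 8.85, 9.18 and 9.15 at day 12, against 9.85, 10.12 and 9.76 at day 8, a difference of -0.86 (SE 0.12, adjusted p = 1.2e-05). Acaca fell by 0.28 (adjusted p = 0.0153). Ebp, Srebf1 and Fads1 held in all 14 alternative fits (the 1.5-fold minimum apart). The count of sterol enzymes depended on treated day 12 array 1. Without it Tm7sf2 (0.35, adjusted p = 0.0277), Msmo1 (0.23, adjusted p = 0.049) and Dhcr7 (0.28, adjusted p = 0.0274) were called higher, as was Insig1 (0.30, adjusted p = 0.0183), and Acaca and Scd2 were not called. Dhcr7 was also called higher after quantile normalization (0.24, adjusted p = 0.0277). Without day 12 array 2 Idi1 was called lower (-0.24, adjusted p = 0.0407) and Scd1 and Scd2 were not called, and without day 12 array 3 there were 3 risers and 1 faller. Quantile normalization gave 8 risers and 2 fallers, and median centring gave 2 and 4. After median centring Scd1, Scd2 and Fads2 were no longer called, Pmvk and Sc5d were called lower, and the member median was -0.05.

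**Figure D5:**
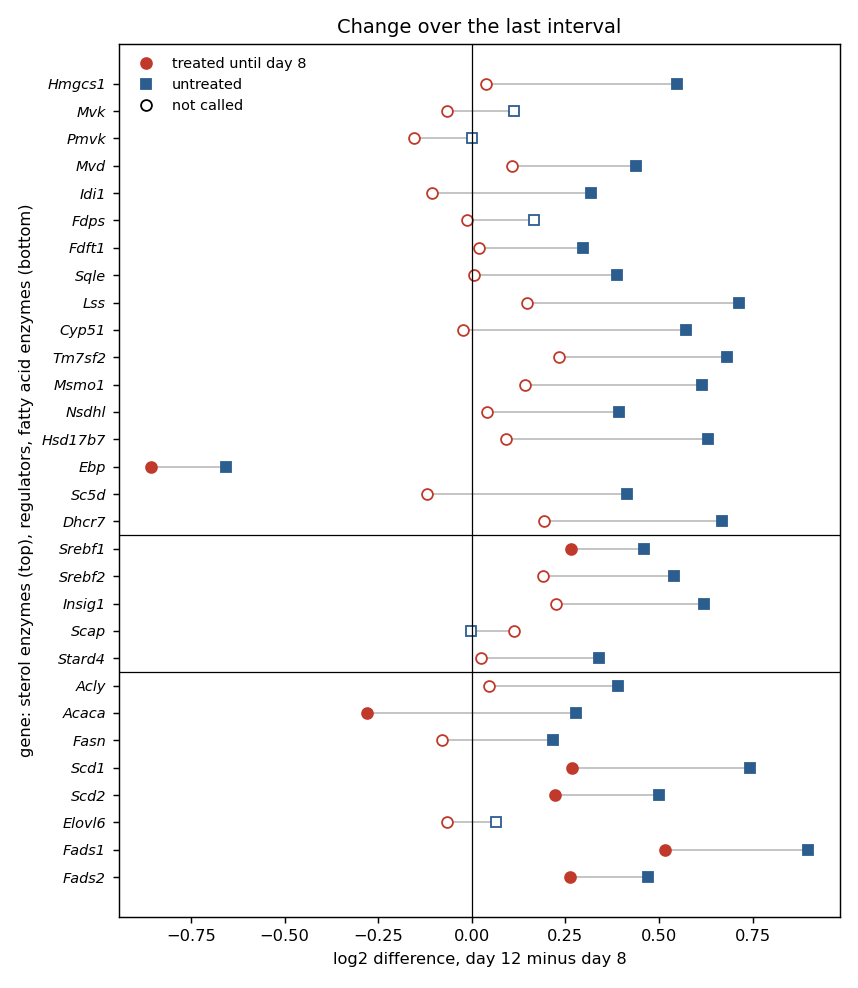
Difference in log2 signal between day 12 and day 8 for each member (x axis), in EBs treated until day 8 (circles) and in untreated EBs (squares), with filled marks where the adjusted p is under 0.05. The treated mark lies left of the untreated one for 29 of the 30 members, with Scap as the exception.

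Whether the drug effect itself differed between days was tested as an interaction. Its value is the treated minus untreated difference of the later day less that of the earlier day. Between days 4 and 6 no member was called by limma, beside 0.0752% of genes called higher and 0.0201% lower. None was called between days 6 and 8 either, beside 0.221% and 0.181%. At an unadjusted p under 0.05 (limma), 8 members were higher and 0 lower in the first interval, beside 1617 of 19938 genes in either direction. In the second interval 0 were higher and 2 lower, beside 2207 genes in either direction. Between days 8 and 12, 9 members had a called decrease and 0 an increase, beside 2.57% and 2.63% of all genes. They were 7 sterol enzymes (Hmgcs1, Sqle, Lss, Cyp51, Msmo1, Sc5d and Dhcr7) and 2 fatty acid enzymes (Acaca and Scd1). For Cyp51 the drug difference was -0.38 at day 12 and 0.22 at day 8, which gave -0.60 (SE 0.12, adjusted p = 0.00699). For Sc5d it was -0.23 at day 12 and 0.30 at day 8, which gave -0.53 (SE 0.12, adjusted p = 0.0099). Over all members 29 of 30 had a value below 0, with a median of -0.35 beside 0.03 over all genes. When the 4 groups were fitted alone 0 of the 9 were called, and the count depended on single arrays. It was 4 without treated day 12 array 1 or untreated day 8 array 2, and 5 without treated day 8 array 1, untreated day 8 array 1 or untreated day 12 array 3. It was 7 without untreated day 12 array 2, 14 without untreated day 8 array 3 and 15 without treated day 8 array 2 or treated day 12 array 2. The interaction shares its day 12 arrays with the day 12 comparison above.

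Other genes of sterol and fatty acid handling were followed at day 12 by the same test. Of all genes 7.49% were called higher and 10.4% lower at that day. Of 13 genes for uptake, transport and efflux of sterols, 3 were higher and 1 lower in treated EBs, with a median of 0.11. Mylip, a ubiquitin ligase that removes lipoprotein receptors, had a difference of 1.08 (adjusted p = 1e-05, limma), and Lrp8, a reelin and lipoprotein receptor, one of -1.01 (adjusted p = 2.1e-05). Apoe (0.55) and the cholesterol exporter Abca1 (0.37) were higher. Of 2 further genes near sterol synthesis, Lbr, a sterol reductase of the nuclear envelope, was lower (-0.27) and the mitochondrial thiolase Acat1 higher (0.39). Of 7 genes that process or degrade SREBPs and INSIGs, Erlin1 was higher (0.40) and Fbxw7, which targets nuclear SREBP for degradation, was lower (-0.43). None of 8 genes of the isoprenoid side branches was called. At an unadjusted p under 0.05 (limma) 0 were higher and 1 lower, beside 5913 of 19938 genes in either direction. The median was 0.10 over the SREBP processing genes and -0.06 over the isoprenoid genes.

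Of 25 genes for fatty acid activation, elongation and storage, 10 were lower and 4 higher in treated EBs at day 12, with a median of -0.22. The shares of all genes were 10.4% lower and 7.49% higher. Elovl4, an elongase of very long chains, differed by -0.85 and Acss2, which makes acetyl-CoA from acetate, by -0.81. Malic enzyme Me1, a source of NADPH, was higher by 1.15 and the elongase Elovl1 by 0.60. Of 12 fatty acid oxidation genes, 4 were higher and 0 lower, with a median of 0.18. Cpt1a, which admits fatty acids to mitochondria, differed by 1.59 (SE 0.24, adjusted p = 7.2e-05, limma), or 3.02-fold, more than any member. Acadl (0.42), Ppara (0.32) and Hadhb (0.29) were higher as well. At day 8 Me1 (0.92) and Elovl1 (0.36) were already higher and Mlxipl, a glucose-responsive regulator of lipogenesis, lower (-0.35). Of the 7 genes tied to SREBP handling 3 were higher at that day, Pgrmc1 (0.37), Erlin1 (0.32) and Erlin2 (0.21). Of 8 isoprenoid genes 1 was higher as well, as was 1 of 13 genes for uptake, transport and efflux of sterols. Of all genes 4.86% were called higher and 4.08% lower at day 8. At day 6, of the 13 genes for uptake, transport and efflux, 1 was higher, the lipoprotein receptor Vldlr (0.97). Another 1 was lower, the sterol exporter Abcg1 (-0.55). Of the 25 genes for fatty acid activation, elongation and storage, 1 was higher and 0 lower at day 6. The shares of all genes at that day were 1.26% higher and 0.577% lower.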

How the data were processed

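RNA of 24 EB samples was measured on Affymetrix Mouse Gene ST arrays. According to the submitters' processing notes, Affymetrix Expression Console and RMA, a method that background-corrects, normalizes and summarises probes, produced the authors' log2 values. That the scale is log2 was read from the deposited values. The sources used here name no software version and no genome build. No detection calls were used, so a low signal may be background. The deposited table holds 35556 probe sets, and 0 value columns lacked a sample. Probe sets were named from the platform annotation, 21789 with 1 symbol, 1621 with several and 12146 not listed. Of the first, 21698 matched the GRCm38.p6 gene table by Entrez identifier. The brightest probe set per gene left 19938 genes.

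The tests used limma 3.58.1 in R 4.3.3 (lmFit on 8 group means, eBayes, Benjamini-Hochberg adjustment within each of the 13 comparisons, threshold 0.05), and tables used Python 3.11.15. The fit was tested on simulated data with known changes. Arrays were given for members called in a drug comparison (or the 4 of smallest p) and for the largest changes between neighbouring days, and up to 4 genes per other list by smallest p. The members and lists were chosen with earlier results of these data known. Replicate numbers come from the titles. Same-numbered arrays deviated together (r over 0.1 for each number) at days 6, 8 and 12, though not at day 4 (-0.014, 0.191 and -0.053). Treated array 3 went slightly better with untreated array 1 than with array 3 at day 8 (0.126 against 0.107) and day 12 (0.264 against 0.253). The pairing by number is thus uncertain there. Alternatives were a 40th percentile filter, quantile normalization, median centring, mean probe sets, a trended robust prior, array weights, replicate blocks, the compared groups alone, a 1.5-fold minimum and each array left out.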

Additional observations from a re-analysis of the deposited data

Results flagged for a closer look

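The effect of the drugs differed between day 12 and day 8 by limma's interaction test for 9 of 30 members. All 9 were decreases, beside 2.57% of all genes called lower and 2.63% called higher. The change of the treated minus untreated difference was -0.60 for Cyp51, -0.57 for Lss, -0.56 for Acaca, -0.53 for Sc5d, -0.51 for Hmgcs1, -0.48 for Dhcr7, -0.48 for Scd1, -0.47 for Msmo1 and -0.38 for Sqle. Adjusted p-values ran between 0.00699 (Cyp51 and Hmgcs1) and 0.0336 (Scd1). At day 12 the treated arrays lay below the untreated ones for all 9, beside 17.1% of all genes. At day 8 the differences of these genes were between 0.01 (Dhcr7) and 0.30 (Sc5d). Both sets of values enter the interaction by which the 9 were picked, so they are no separate support for it. Each of the 9 calls ended in at least 1 of 21 alternative fits, and none held when the compared groups were fitted alone. With 1 array left out the count of called members ran between 4 and 15.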

How the results depend on the processing

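No called difference changed sign: over 95 called results and 1415 alternative values, 165 fell short of the threshold and 0 reversed. A reversal could not arise in fits that keep each difference as it was, such as the percentile filter, trended prior and compared groups alone. Over 295 uncalled results 161 values passed it. With 1 array left out the number of members called was 0 for drug against untreated at day 4, between 1 and 4 at day 6, 0 and 3 at day 8, and 11 and 21 at day 12. For untreated EBs it was between 8 and 11 (day 6 against 4), 4 and 7 (day 8 against 6), and 23 and 25 (day 12 against 8). For treated EBs it was between 5 and 7, 4 and 8, and 4 and 9 over the same intervals. For the change of the drug effect it was 0, 0, and between 4 and 15.

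Array weights, whose fit stopped before convergence, gave 9 calls at day 6, 4 at day 8, 19 and 12 for the first 2 untreated intervals, 11 for treated day 12 against 8, and 6 and 20 for the drug effect changes of day 6 against 4 and 12 against 8. Fitting the compared groups alone gave 0 at day 8, 3 for treated day 12 against 8 and 0 for the last drug effect change. Centring gave 2 at day 8 and 17 for untreated day 6 against 4, and quantile normalization 14 there and 12 for untreated day 8 against 6. The replicate block within the day gave 2 at day 8, moved no other count by over 1.5 times, and at day 12 gave 18 calls, without Tm7sf2 and with Sc5d. Requiring 1.5-fold left 9 for untreated day 12 against 8, 1 for treated day 12 against 8, 1 for the last drug effect change and 0 elsewhere. The causes were not tested. With 3 arrays a group, the smallest drug difference called among the members was -0.23.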
